A study of Mus musculus with 12 samples.

Results

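The 10 genes described here are receptors, ligands and HES and HEY transcription factors of the Notch pathway. The receptors are Notch1, Notch2 and Notch3, the ligands Dll1, Dll3 and Jag1, and the transcription factors Hes1, Hes5, Hes6 and Hey1. They were chosen by name, with earlier results of these data known, from 54356 annotated mouse genes to which reads were summed. Of the 10, 9 were among the 14607 genes with enough reads to be tested, and Jag1 was not. RNA came from cultured astrocytes of C57BL/6 mice, and the series asks how expression moves from an astrocytic to a neuronal pattern once PTB is depleted. PTB is an RNA-binding protein, encoded by Ptbp1, that represses neuronal splicing. There were 6 groups of 2 libraries, 12 libraries in all. Midbrain astrocytes received an shRNA against PTB (shPTB) and were kept in neuronal differentiation medium for 2 weeks or for 4 weeks, against mock cultures in growth medium. Cortical astrocytes were treated in the same 3 ways. Hairpin and medium were changed at once, and their effects cannot be told apart. The labels give no week for the mock cultures, so time in culture cannot be told apart from hairpin and medium either. Nothing in the labels says whether the 2 replicates of a group came from different cultures or mice, and the p-values therefore cover the spread between libraries, which may be technical.

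Notch receptors are cut after a ligand on a neighbouring cell binds them, and the freed intracellular domain joins the DNA-binding protein RBPJ to switch on genes of the HES and HEY families. HES and HEY proteins repress proneural genes, and in the developing brain this pathway is known to keep progenitors from becoming neurons and to favour astrocytes. Dll3 and Hes6 are known as genes of cells that leave the progenitor state: DLL3 does not activate Notch on neighbouring cells, and HES6 opposes HES1.

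Dll3, Hes1 and Hes6 fell in all 4 comparisons with mock. Dll3 and Hes6 kept these calls under every alternative run, while each Hes1 call was lost under 1 or more. Notch2 was the only member that was higher in cortex at 2 weeks and at 4 weeks, and Notch2 and Hey1 were the members higher in midbrain at 4 weeks, when the libraries were scaled by trimmed means of M-values (TMM). Midbrain held 3 Hes5 reads at 4 weeks, against 215 in mock. Levels are given as CPM, the usual depth-scaled read count, with TMM scaling, for replicate 1 and then replicate 2. Changes are given on the log2 scale with their standard error (SE). Unless an alternative is named, adjusted p come from the quasi-likelihood test of edgeR with Benjamini-Hochberg adjustment over the 14607 genes. Those of an alternative come from its own fit and the genes tested in it, with DESeq2's own test where DESeq2 is named. All were read at a threshold of 0.05.

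The promoter letters of the 3 members around which the results turn most are printed here. Hes5 fell furthest of the HES and HEY members in midbrain at 4 weeks, and Dll3 and Hes6 fell in every comparison with mock. The motif marked in Hes5 differs from the one marked in both Dll3 and Hes6. The windows run from 250 bases before to 50 bases after the annotated start, 5′ to 3′ on the gene's strand, from RefSeq on GRCm38.p6. Capitals mark GTGGGAA or its reverse complement, a core site of RBPJ, in Hes5, and CAGCTG, an E-box of proneural factors, in Dll3 and Hes6. The windows are chr4:154960673-154960972 on the plus strand for Hes5, chr7:28301736-28302035 on the minus strand for Dll3, and chr1:91413989-91414288 and chr1:91413173-91413472 on the minus strand for Hes6 starts 1 and 2.
Hes5: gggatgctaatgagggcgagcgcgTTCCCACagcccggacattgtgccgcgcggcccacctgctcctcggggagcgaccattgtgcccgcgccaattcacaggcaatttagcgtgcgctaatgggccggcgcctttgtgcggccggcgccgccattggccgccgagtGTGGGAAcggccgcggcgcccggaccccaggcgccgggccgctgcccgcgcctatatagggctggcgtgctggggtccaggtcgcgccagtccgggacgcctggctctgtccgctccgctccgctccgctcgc
Dll3: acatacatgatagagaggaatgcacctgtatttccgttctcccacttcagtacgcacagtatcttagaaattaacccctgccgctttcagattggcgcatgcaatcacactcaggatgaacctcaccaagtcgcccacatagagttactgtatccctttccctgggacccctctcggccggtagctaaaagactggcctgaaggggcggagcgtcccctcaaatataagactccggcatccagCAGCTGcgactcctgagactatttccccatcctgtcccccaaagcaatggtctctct
Hes6, start 1: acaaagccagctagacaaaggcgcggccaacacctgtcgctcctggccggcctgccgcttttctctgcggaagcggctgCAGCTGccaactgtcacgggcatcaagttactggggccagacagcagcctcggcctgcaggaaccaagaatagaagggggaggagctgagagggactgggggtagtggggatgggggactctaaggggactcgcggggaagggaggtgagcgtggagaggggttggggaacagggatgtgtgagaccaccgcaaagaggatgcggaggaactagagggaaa
Hes6, start 2: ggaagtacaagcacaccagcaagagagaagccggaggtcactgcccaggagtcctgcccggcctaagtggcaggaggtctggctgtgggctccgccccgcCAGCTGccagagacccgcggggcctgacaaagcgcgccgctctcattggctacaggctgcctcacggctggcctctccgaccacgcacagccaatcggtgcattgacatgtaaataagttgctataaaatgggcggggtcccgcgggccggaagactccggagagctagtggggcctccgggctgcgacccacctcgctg

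Of the 10 members, 8 had promoter entries in the RefSeq table, with 10 windows of 300 bases; Hes1 and Hey1 had none. GTGGGAA, read on both strands, stood in the Hes5 window at 226 bases before the start on the minus strand and at 83 bases before it on the plus strand. None of the other 9 windows held these letters. Among all 32851 windows of the same length, 6.383% held at least 1 match and 0.2557% held 2 or more. CAGCTG, a palindrome, was found once in Dll3 (7 bases before the start), once at each Hes6 start (171 and 150 bases before it), once in Jag1 (82 bases before it) and at the second of the 2 Dll1 starts (132 bases before it), against 16.3% of all windows. The N-box CACNAG, bound by HES proteins, was in the windows of Notch1, Notch2, Notch3, Dll1 and Hes6 and in 42.48% of all windows. The whole Dll3 window lies inside the gene bounds used for counting reads (chr7:28293553-28302238), so its RefSeq start is downstream of the start used there. A match is a description of letters, and binding was not measured.

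Libraries held 6022098 to 11385761 reads, and a count of 0 in a library allows up to 3 reads, or 0.163 to 0.576 CPM. Floors and exact 95% intervals cover counting error only. Mitochondrial genes took 36.4 to 48.3% of reads in shPTB libraries and 16.9 to 22.7% in mock libraries, and TMM factors were 0.680 to 0.953 in shPTB and 1.22 to 1.69 in mock. Scaling to total reads in place of TMM moved the median log2 change of all genes from −0.07 to −0.74 in midbrain at 2 weeks, from −0.15 to −1.01 at 4 weeks, from −0.11 to −0.85 in cortex at 2 weeks and from −0.12 to −1.21 at 4 weeks, so that changes are read relative to that shift. Mock replicates differed by over 2-fold in 15.8% (midbrain) and 18.4% (cortex) of genes, against 6.44 to 10.5% in shPTB groups. The targeted gene Ptbp1 had 105 and 90.7 CPM at 2 weeks, 169 and 155 CPM at 4 weeks and 208 and 250 CPM in mock in midbrain. It changed by −1.22 ± 0.21 (adjusted p = 0.00122) at 2 weeks and −0.50 (adjusted p = 0.0745, not past the threshold) at 4 weeks. In cortex Ptbp1 had 72.9 and 73.4 CPM at 2 weeks, 89.1 and 90.4 CPM at 4 weeks and 172 and 251 CPM in mock. It fell there by 1.53 and by 1.24 on the log2 scale (adjusted p = 0.000267 and 0.000813). With a length offset the 2-week call in midbrain (adjusted p = 0.0527) and the 4-week call in cortex (adjusted p = 0.0913) were lost.

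**Figure D1:**
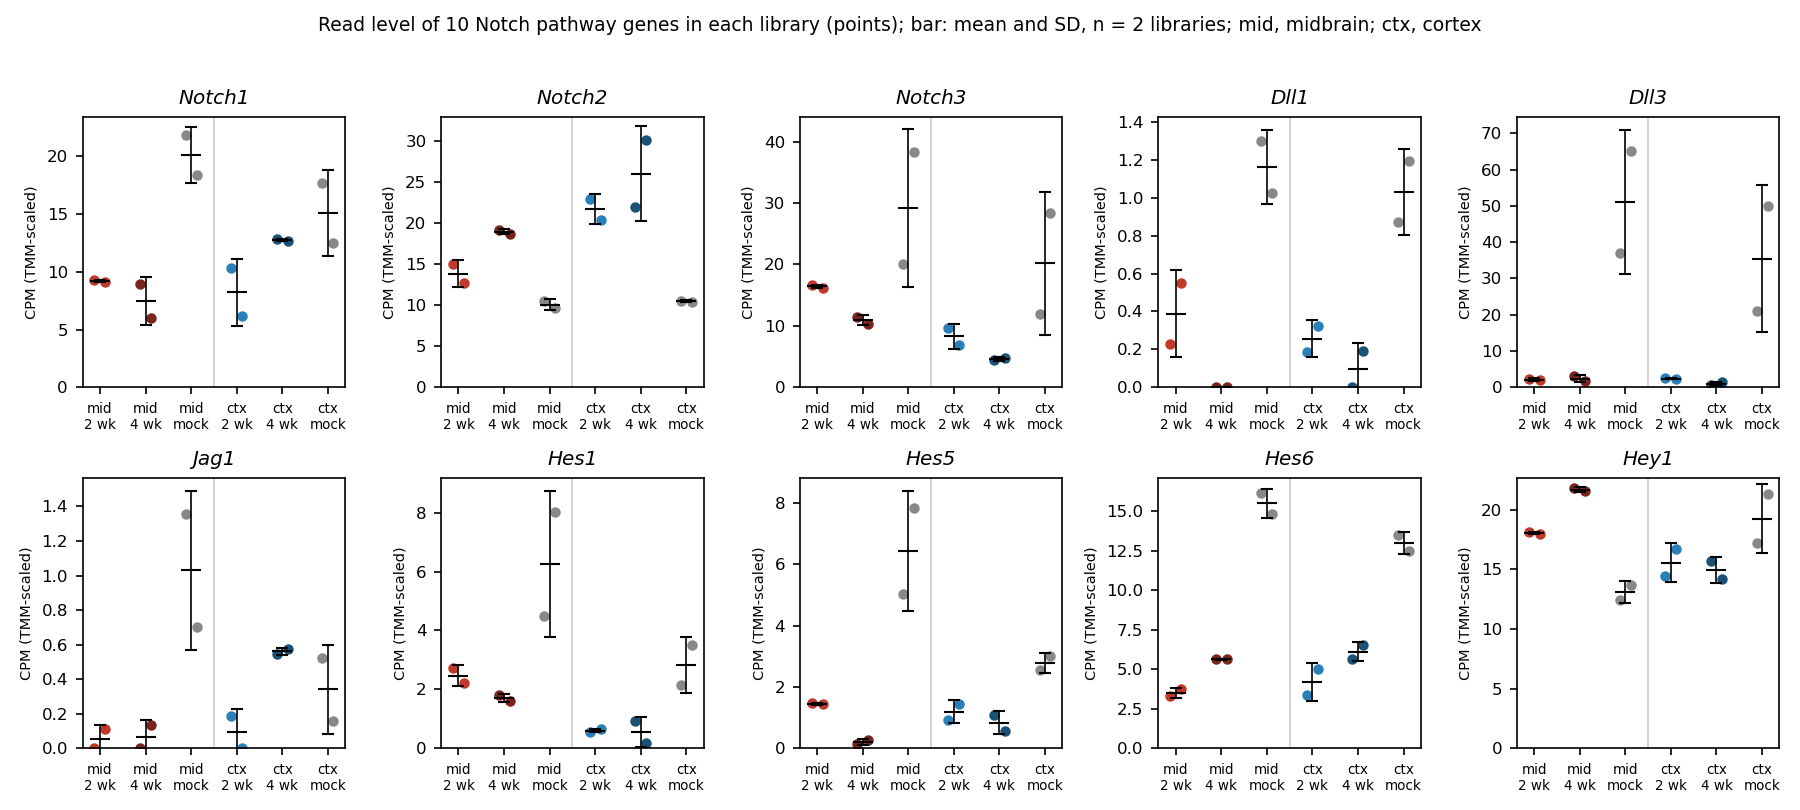
TMM-scaled CPM of each of the 10 members (vertical axes, from 0) in midbrain (mid) and cortex (ctx) at 2 weeks and 4 weeks of shPTB and in mock. Points are libraries, and black bars are the mean and SD of 2 libraries. Dll3 lies between 0.549 and 3.04 CPM in the 8 shPTB libraries and between 21.1 and 65.2 CPM in the 4 mock libraries, while Notch2 is higher in every shPTB library than in either mock library of its region.

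Among the receptors, Notch1, a receptor of neural progenitors and astrocytes (chr2:26457903-26516663, GRCm38), had 9.27 and 9.15 CPM at 2 weeks, 8.97 and 6.02 CPM at 4 weeks and 21.8 and 18.4 CPM in mock in midbrain. Its cortical levels were 10.3 and 6.16 CPM at 2 weeks, 12.8 and 12.7 CPM at 4 weeks and 17.7 and 12.5 CPM in mock. All 4 shPTB libraries of midbrain lay below both mock libraries, whereas the cortical libraries overlapped. Notch1 changed by −1.13 ± 0.28 (adjusted p = 0.0102) at 2 weeks and by −1.42 ± 0.28 (adjusted p = 0.00262) at 4 weeks in midbrain. In cortex it fell at 2 weeks (−0.89 ± 0.29, adjusted p = 0.0337), and at 4 weeks its change of −0.25 did not pass the threshold (adjusted p = 0.510). The midbrain 2-week call was lost without either of its 2-week libraries (adjusted p = 0.0682 without replicate 1 and 0.0726 without replicate 2) and with a length offset (−0.81, adjusted p = 0.181), and the 4-week call with a length offset (−1.14, adjusted p = 0.0645). The cortical 2-week call was lost without cortex mock replicate 1 (−0.62, adjusted p = 0.167), without 2-week replicate 2 (−0.56, adjusted p = 0.260), with a length offset (−0.14, adjusted p = 0.831) and in a fit of the compared groups alone (adjusted p = 0.103).

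Notch2, a receptor closely related to Notch1 (chr3:98013527-98150361), moved the other way. In midbrain it had 15.03 and 12.7 CPM at 2 weeks, 19.2 and 18.7 CPM at 4 weeks and 10.5 and 9.62 CPM in mock. The cortical libraries held 23.0 and 20.4 CPM at 2 weeks, 21.9 and 30.1 CPM at 4 weeks and 10.6 and 10.4 CPM in mock. No shPTB library overlapped the mock libraries of its region. Notch2 was higher in midbrain at 4 weeks (0.91 ± 0.20, adjusted p = 0.00473) and in cortex at 2 weeks (1.05 ± 0.20, adjusted p = 0.00242) and then 4 weeks (1.31 ± 0.20, adjusted p = 0.000494), and its 2-week change of 0.46 ± 0.20 in midbrain missed the threshold (adjusted p = 0.105). These 3 calls rested on the scaling: against total reads the changes were 0.04 (adjusted p = 0.902), 0.31 (adjusted p = 0.308) and 0.22 (adjusted p = 0.447), and −0.22 in midbrain at 2 weeks. The deposited TPM are divided by transcript length and are shares of all transcripts, with mitochondrial ones included. These TPM ran in the opposite direction to the CPM: they averaged 0.412 ± 0.0449 at 2 weeks, 0.454 ± 0.0161 at 4 weeks and 0.756 ± 0.132 in mock in midbrain, and 0.572 ± 0.0788, 0.385 ± 0.0809 and 0.727 ± 0.236 in the same order of states in cortex (SD, n = 2).

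Notch3, a receptor best known from mural cells of vessels and also made by progenitors (chr17:32120820-32166852), had 16.6 and 16.2 CPM at 2 weeks, 11.5 and 10.3 CPM at 4 weeks and 20.1 and 38.3 CPM in mock in midbrain. Cortical levels were 9.72 and 6.81 CPM at 2 weeks, 4.39 and 4.80 CPM at 4 weeks and 11.95 and 28.4 CPM in mock. Every shPTB library lay below both mock libraries of its region, and in each region mock replicate 2 was far above replicate 1. Notch3 fell in midbrain at 4 weeks (−1.42 ± 0.40, adjusted p = 0.0158) and in cortex at 2 weeks (−1.28 ± 0.41, adjusted p = 0.0327) and then 4 weeks (−2.12 ± 0.44, adjusted p = 0.00316), and had −0.83 in midbrain at 2 weeks (adjusted p = 0.122). Without midbrain mock replicate 2 the midbrain 4-week change was −0.89 (adjusted p = 0.0928), and it also lost its call without 4-week replicate 1 (adjusted p = 0.0779) or 2 (adjusted p = 0.102). Without cortex mock replicate 2 the cortical change at 2 weeks was −0.55 (adjusted p = 0.245), and the one at 4 weeks kept its call (−1.38, adjusted p = 0.0123). The cortical 2-week call was also lost without 2-week replicate 1 (adjusted p = 0.0766) or 2 (adjusted p = 0.205) and in a fit of the compared groups alone (adjusted p = 0.0629).

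Markers of mural cells and fibroblasts, where Notch3 is best known, changed in both directions. Of 8 such markers 7 were tested, and 3 were lower and 3 higher in midbrain at 2 weeks, 4 lower and 3 higher in midbrain at 4 weeks, 4 lower and 3 higher in cortex at 2 weeks, and 4 lower and 2 higher in cortex at 4 weeks. Over all genes, 14.7 to 20.9% were lower and 15.9 to 18.7% higher in these 4 comparisons. Their summed level was 233 and 243 CPM at 2 weeks, 190 and 196 CPM at 4 weeks and 1729 and 1876 CPM in mock in midbrain, and 85.2 and 84.1 CPM, 45.4 and 45.5 CPM and 689 and 715 CPM in the same states in cortex. Acta2, smooth-muscle actin, fell in all 4 (−6.32 and −6.48 in midbrain, −5.57 and −6.30 in cortex at 2 and 4 weeks). Pdgfrb, the defining receptor of pericytes, was higher in all 4 comparisons (1.67 and 1.81 in midbrain, 1.93 and 1.77 in cortex at 2 and 4 weeks), and Myh11 and Col3a1 had 0 reads in cortex at 4 weeks. The part of these cells in the Notch3 result was not tested. In bulk RNA, fewer cells of a type and less RNA per cell cannot be told apart, here and in every result that follows.

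Among the ligands, Dll3, an intracellular inhibitor of Notch signalling in cis and a target of proneural factors (chr7:28293553-28302238), had the largest fall of any member fitted with over 3 reads in each group. In midbrain it had 2.37 and 1.87 CPM at 2 weeks, 3.04 and 1.74 CPM at 4 weeks and 37.1 and 65.2 CPM in mock. Cortex showed 2.43 and 2.27 CPM at 2 weeks, 0.549 and 1.34 CPM at 4 weeks and 21.1 and 49.9 CPM in mock. Each shPTB library held few Dll3 reads, 13 to 22 in midbrain and 3 to 14 in cortex. The groups did not overlap in either region. Dll3 changed by −4.58 ± 0.49 (adjusted p = 5.55e-05) at 2 weeks and −4.42 ± 0.49 (adjusted p = 5.98e-05) at 4 weeks in midbrain, and by −3.91 ± 0.50 (adjusted p = 0.000183) and −5.22 ± 0.58 (adjusted p = 5.33e-05) at the same times in cortex. All 4 calls held under every alternative run. A length offset gave −3.98 in midbrain at 2 weeks and −4.55 in cortex at 4 weeks. Mock replicate 2 was again the higher one, and without cortex mock replicate 2 the cortical changes were −3.17 at 2 weeks and −4.48 at 4 weeks, while without cortex 4-week replicate 2 the last was −5.99.

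Most Dll3 reads were not assigned to its protein-coding transcript. Salmon placed 86.7 to 100% of them, by group, on Dll3-202, a retained-intron transcript of 665 bases at the 3′ end of the gene (chr7:28293599-28294481). This transcript had 2.37 and 1.87 CPM at 2 weeks, 2.55 and 1.59 CPM at 4 weeks and 32.1 and 63.4 CPM in mock in midbrain. The protein-coding Dll3-201, of 2618 bases, had 0 reads in both libraries at 2 weeks, 0.487 and 0.151 CPM at 4 weeks and 4.96 and 1.84 CPM in mock in midbrain. In cortex Dll3-201 had 0.431 and 0 CPM at 2 weeks, 0 reads at 4 weeks and 2.51 and 1.63 CPM in mock. The 2 transcripts differed in which mock replicate was higher: replicate 2 for Dll3-202 and replicate 1 for Dll3-201, in both regions. Since reads lie towards 3′ ends, where these transcripts overlap, the split between them rests on Salmon's estimate. Of the 31-base words at the 3′ end of Dll3, 3.19% also stood in another gene, against 0% for each other member.

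**Figure D2:**
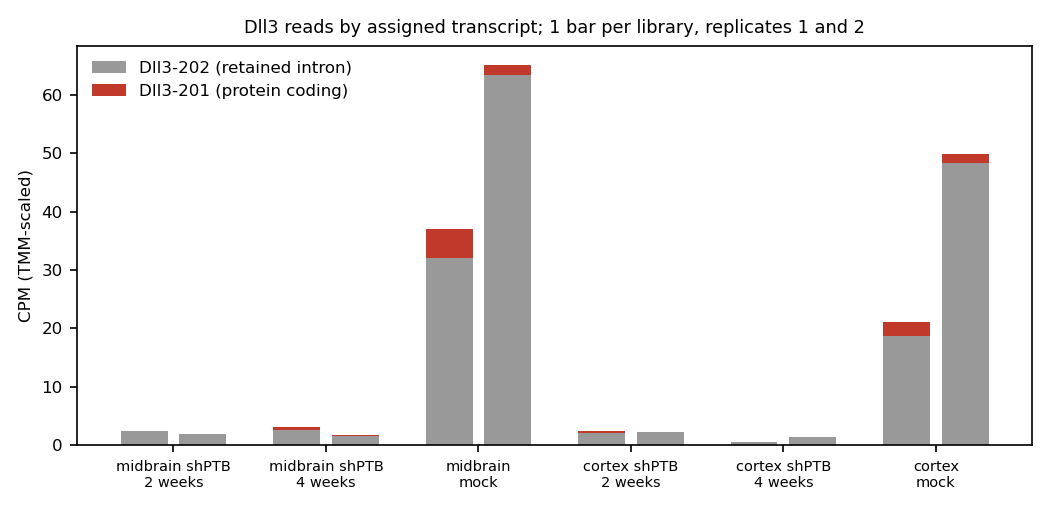
Dll3 reads per library (TMM-scaled CPM, vertical axis from 0), split by the transcript to which Salmon assigned them; each pair of bars is replicates 1 and 2 of a group. The retained-intron transcript Dll3-202 (grey) makes most of every bar, and reaches 32.1 and 63.4 CPM in midbrain mock, against at most 2.55 CPM in any shPTB library.

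Dll1, a ligand that activates Notch on neighbouring cells (chr17:15367354-15376872), was close to the floor. It had 2 and 5 reads at 2 weeks, 0 and 0 reads at 4 weeks and 24 and 16 reads in mock in midbrain. The values in cortex were 1 and 2 reads at 2 weeks, 0 and 1 reads at 4 weeks and 15 and 15 reads in mock. Dll1 was at least 5.76-fold lower in midbrain at 4 weeks, counting 0 reads as 3 over the group (adjusted p = 0.00444), and its change at 2 weeks was −1.55 (adjusted p = 0.118). In cortex it was 10.7-fold lower at 4 weeks (counting interval 1.79 to 438, adjusted p = 0.0296) and 3.86-fold lower at 2 weeks (1.20 to 19.8, adjusted p = 0.1000, not past the threshold). The midbrain 4-week call held under every alternative, and the cortical 4-week call was lost under 7, among them DESeq2 (adjusted p = 0.134), without cortex mock replicate 1 (adjusted p = 0.0570) or 2 (adjusted p = 0.0806) and without 4-week replicate 1 (adjusted p = 0.177).

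Jag1, a membrane-bound ligand that activates Notch on neighbouring cells (chr2:137081456-137116644), had too few reads to be tested. In midbrain it had 0 and 1 reads at 2 weeks, 0 and 1 reads at 4 weeks and 25 and 11 reads in mock, so that it was 18.9-fold lower at 2 weeks (counting interval 3.19 to 769) and 15.6-fold lower at 4 weeks (2.62 to 632). Cortical cultures gave 1 and 0 reads at 2 weeks, 3 and 3 reads at 4 weeks and 9 and 2 reads in mock. Scaled for depth, the cortical mean at 4 weeks was above mock, at 0.562 ± 0.0191 against 0.341 ± 0.257 CPM (SD, n = 2), unlike in midbrain. The midbrain groups did not overlap and the cortical ones did, and the ratio at 2 weeks in cortex, 4.25-fold lower, had an interval of 0.618 to 183 that holds no change. As with Dll3, retained-intron transcripts took a large share of ligand reads in mock: 51.3% in midbrain and 58.2% in cortex for Dll1-204, and 76.6% in midbrain and 60.3% in cortex for Jag1-202.

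Among the HES and HEY genes, Hes1, a repressor of proneural genes that Notch induces in many tissues (chr16:30064384-30067796), had 2.71 and 2.20 CPM at 2 weeks, 1.79 and 1.61 CPM at 4 weeks and 4.497 and 8.01 CPM in mock in midbrain. Levels in cortex were 0.561 and 0.648 CPM at 2 weeks, 0.915 and 0.192 CPM at 4 weeks and 2.15 and 3.496 CPM in mock. No shPTB library reached the mock level of its region. In midbrain Hes1 fell at 2 weeks (−1.34 ± 0.43, adjusted p = 0.0344) as well as at 4 weeks (−1.87 ± 0.45, adjusted p = 0.00785). In cortex it fell at 2 weeks (−2.18 ± 0.58, adjusted p = 0.0136) and 4 weeks (−2.29 ± 0.60, adjusted p = 0.0109). Cortical shPTB libraries held only 1 to 5 Hes1 reads each. The midbrain 2-week call was lost under 8 alternatives, among them without midbrain mock replicate 2 (−0.87, adjusted p = 0.171), without 2-week replicate 1 (adjusted p = 0.117) or 2 (adjusted p = 0.187) and with DESeq2 (adjusted p = 0.0868). The other 3 calls were each lost without 1 or more shPTB libraries: midbrain 4 weeks without replicate 1 (adjusted p = 0.0529) or 2 (adjusted p = 0.0659), cortex 2 weeks without replicate 1 (adjusted p = 0.08599) or 2 (adjusted p = 0.0820), and cortex 4 weeks without replicate 2 (−1.60, adjusted p = 0.0981), which without replicate 1 was −3.79 (adjusted p = 0.0134). With a length offset the midbrain 4-week (adjusted p = 0.0785) and cortex 2-week (−1.12, adjusted p = 0.309) calls were lost too, and the cortical 4-week change was −3.63.

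Hes5, the HES gene most tied to Notch activity in neural progenitors (chr4:154960923-154962371, with the 2 RBPJ core matches in its promoter), had 1.47 and 1.43 CPM at 2 weeks, 0.138 and 0.268 CPM at 4 weeks and 5.04 and 7.82 CPM in mock in midbrain. These are 13 and 13, 1 and 2, and 93 and 122 reads. The cortical values were 0.935 and 1.46 CPM at 2 weeks, 1.10 and 0.576 CPM at 4 weeks and 2.55 and 3.02 CPM in mock. All shPTB libraries lay below the mock libraries of their region. In midbrain Hes5 fell at 2 weeks (−2.14 ± 0.38, adjusted p = 0.00171) and was 30.98-fold lower than mock at 4 weeks (counting interval 10.5 to 151, adjusted p = 4.82e-05), and both calls held under every alternative. In cortex it fell at 4 weeks (−1.71 ± 0.46, adjusted p = 0.0130), a call lost without 4-week replicate 2 (adjusted p = 0.114) and with DESeq2 (adjusted p = 0.0570), and it missed the threshold at 2 weeks (−1.19 ± 0.43, adjusted p = 0.0504). All Hes5 reads were assigned to the protein-coding Hes5-201.

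Hes6, which opposes HES1 and is known as a marker of committed neuronal precursors (chr1:91411483-91414038), had 3.28 and 3.75 CPM at 2 weeks, 5.66 and 5.62 CPM at 4 weeks and 16.1 and 14.8 CPM in mock in midbrain. Cortical libraries showed 3.36 and 5.02 CPM at 2 weeks, 5.67 and 6.52 CPM at 4 weeks and 13.5 and 12.5 CPM in mock. Replicates of Hes6 lay close together except in cortex at 2 weeks, and every shPTB library lay below both mock libraries of its region. It fell at 2 weeks (−2.14 ± 0.23, adjusted p = 6.21e-05) and 4 weeks (−1.46 ± 0.23, adjusted p = 0.000541) in midbrain, and at 2 weeks (−1.62 ± 0.24, adjusted p = 0.000449) and 4 weeks (−1.09 ± 0.23, adjusted p = 0.00343) in cortex. All 4 calls held under every alternative, and with a length offset the falls were larger, by 2.97, 2.84, 2.80 and 2.44 on the log2 scale in the same order. The means were higher at 4 weeks than at 2 weeks in both regions, but that difference did not pass the threshold in midbrain (0.68, adjusted p = 0.176) or cortex (0.53, adjusted p = 0.375).

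Markers of neuroblasts, the cells in which Dll3 and Hes6 are best known, moved the same way. Of 5 such markers, 5 were lower in midbrain at 2 weeks and at 4 weeks and in cortex at 2 weeks, and 4 in cortex at 4 weeks. Of all genes, 14.7 to 20.9% were lower in these comparisons. Their summed level was 43.7 and 48.3 CPM at 2 weeks, 35.3 and 31.6 CPM at 4 weeks and 184 and 138 CPM in mock in midbrain, and 53.5 and 48.1 CPM, 36.4 and 34.0 CPM and 176 and 140 CPM in the same states in cortex. None of the 5 was at 0 reads in any group. The part of neuroblasts in the Dll3 and Hes6 results was not tested.

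Other cell markers moved too, in comparisons where 14.7 to 20.9% of all genes were lower and 15.9 to 18.7% higher. Cycling-cell markers (5 of 5) and microglial markers (6 of 6) were lower in all 4 comparisons with mock, and of 6 radial glia and progenitor markers 3 were lower and 1 higher in midbrain at 2 weeks, 3 lower in midbrain at 4 weeks and 4 lower in cortex at each time. The cycling-cell sum was 20.3 and 19.9 CPM at 2 weeks, 7.86 and 6.02 CPM at 4 weeks and 193 and 188 CPM in mock in midbrain, and 13.1 and 14.1, 4.39 and 4.80, and 180 and 175 CPM in the same states in cortex, with Kif11 at 0 reads at 4 weeks in each region. The progenitor sum was 2291 and 2338 CPM at 2 weeks, 1422 and 1586 CPM at 4 weeks and 3294 and 3958 CPM in mock in midbrain, and 1558 and 1617, 734 and 768, and 3080 and 3875 CPM in cortex, with no marker at 0. Neuron markers, 6 in all, had 1 higher and 2 lower in midbrain at 2 weeks, 1 higher and 3 lower in midbrain at 4 weeks, 3 higher and 2 lower in cortex at 2 weeks, and 1 higher and 2 lower in cortex at 4 weeks. Their sum was 48.7 to 70.3 CPM in midbrain shPTB against 110 and 131 CPM in midbrain mock, and 60.0 to 87.7 CPM in cortex shPTB against 134 and 185 CPM in cortex mock, with none at 0 reads. The microglial sum was 28.1 and 28.1 CPM at 2 weeks, 10.5 and 12.7 CPM at 4 weeks and 1179 and 1472 CPM in mock in midbrain, and 58.5 and 60.0, 18.1 and 20.9, and 1047 and 1592 CPM in cortex. Ependymal markers (4 of 4) were lower in all 4 comparisons, with sums of 8.81 and 13.1 CPM at 2 weeks, 6.90 and 8.43 CPM at 4 weeks and 83.0 and 44.0 CPM in mock in midbrain, and 4.30 and 4.38, 3.66 and 3.65, and 102 and 50.7 CPM in cortex. Of 8 markers of oligodendrocytes and their precursors, 4 were higher and 2 lower in midbrain at 2 weeks, 2 higher and 2 lower in midbrain at 4 weeks, 5 higher and 2 lower in cortex at 2 weeks, and 4 higher and 2 lower in cortex at 4 weeks. Their sum was 46.1 to 55.8 CPM in midbrain shPTB against 45.1 and 54.9 CPM in midbrain mock, and 199 to 220 CPM in cortex shPTB against 51.0 and 52.9 CPM in cortex mock. Of 5 endothelial markers 3 were tested, and 1 was higher and 1 lower in midbrain at 2 weeks, 1 lower in midbrain at 4 weeks, 0 passed in cortex at 2 weeks and 3 were lower in cortex at 4 weeks. The endothelial sum was 5.93 to 8.71 CPM in midbrain shPTB against 12.9 and 19.3 CPM in midbrain mock, and 1.15 to 5.23 CPM in cortex shPTB against 5.28 and 6.75 CPM in cortex mock, with Tek at 0 reads in every group and Cldn5 at 0 reads in mock and at 4 weeks in each region. Markers of astrocytes, the cell type the labels give, were present in every group, with none of 8 at 0 reads. Of them 2 were lower in midbrain at 2 weeks, 4 lower and 1 higher in midbrain at 4 weeks, 2 lower and 2 higher in cortex at 2 weeks, and 4 lower and 2 higher in cortex at 4 weeks. Their sum was 7796 to 10619 CPM in midbrain shPTB against 11357 and 14835 CPM in midbrain mock, and 14424 to 15067 CPM in cortex shPTB against 13118 and 22240 CPM in cortex mock. The part of these cells in the fall of Hes1 and Hes5 was not tested.

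Hey1, a target of Notch that is also induced by BMP signals (chr3:8663359-8667256), was the only HES or HEY member with no fall past the threshold. In midbrain it had 18.1 and 17.96 CPM at 2 weeks, 21.8 and 21.5 CPM at 4 weeks and 12.4 and 13.7 CPM in mock. Among cortical libraries the values were 14.4 and 16.7 CPM at 2 weeks, 15.7 and 14.2 CPM at 4 weeks and 17.2 and 21.3 CPM in mock. All shPTB libraries lay above mock in midbrain and below mock in cortex. Hey1 was higher in midbrain at 4 weeks (0.73 ± 0.18, adjusted p = 0.00943), and did not pass the threshold in midbrain at 2 weeks (0.46 ± 0.18, adjusted p = 0.0766) or in cortex at 2 weeks (−0.30, adjusted p = 0.230) or 4 weeks (−0.36, adjusted p = 0.153). Scaled to total reads the midbrain changes were −0.20 at 2 weeks and −0.13 at 4 weeks, so that the direction there depended on the scaling, and the cortical ones −1.02 (adjusted p = 0.00119) and −1.43 (adjusted p = 9.85e-05). The 4-week call was also lost without 4-week replicate 1 (adjusted p = 0.0613) or 2 (adjusted p = 0.0577), with no count filter (adjusted p = 0.0548) and in a fit of the compared groups alone (adjusted p = 0.0534).

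Counted together, 5 of the 9 tested members passed the threshold in midbrain at 2 weeks, all lower, where 30.6% of all genes passed, 14.7% lower and 15.9% higher. In midbrain at 4 weeks 9 of 9 passed, 7 lower and 2 higher, where 39.2% of all genes passed, 20.4% lower and 18.7% higher. In cortex 6 passed at 2 weeks, 5 lower and 1 higher (35% of all genes, 17.6% lower and 17.5% higher), and 7 at 4 weeks, 6 lower and 1 higher (39.4% of all genes, 20.9% lower and 18.5% higher). The members' median log2 change was −1.34 and −1.46 in midbrain and −1.28 and −1.71 in cortex at 2 and 4 weeks, with fitted values or counting ratios and bounds alike, against −0.07 and −0.15 and −0.11 and −0.12 over all genes. The 2-week and 4-week comparisons of a region share their 2 mock libraries. Because the members were chosen with earlier results of these data known, their shares and medians describe the list and test nothing about the pathway. Scaled to total reads, 7 members were lower and 0 higher in midbrain at each time and 8 lower and 0 higher in cortex at each time, and the share of all calls that were higher fell to 17.1% and 13.1% in midbrain and 16.5% and 9.31% in cortex, against 51.8% and 47.9% and 49.8% and 47.0% with TMM. All 4 shPTB libraries lay below both mock libraries for 7 of the 9 tested members in midbrain (27.7% of all tested genes) and 7 in cortex (28.4%); the untested Jag1 lay below mock in midbrain as well.

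**Figure D3:**
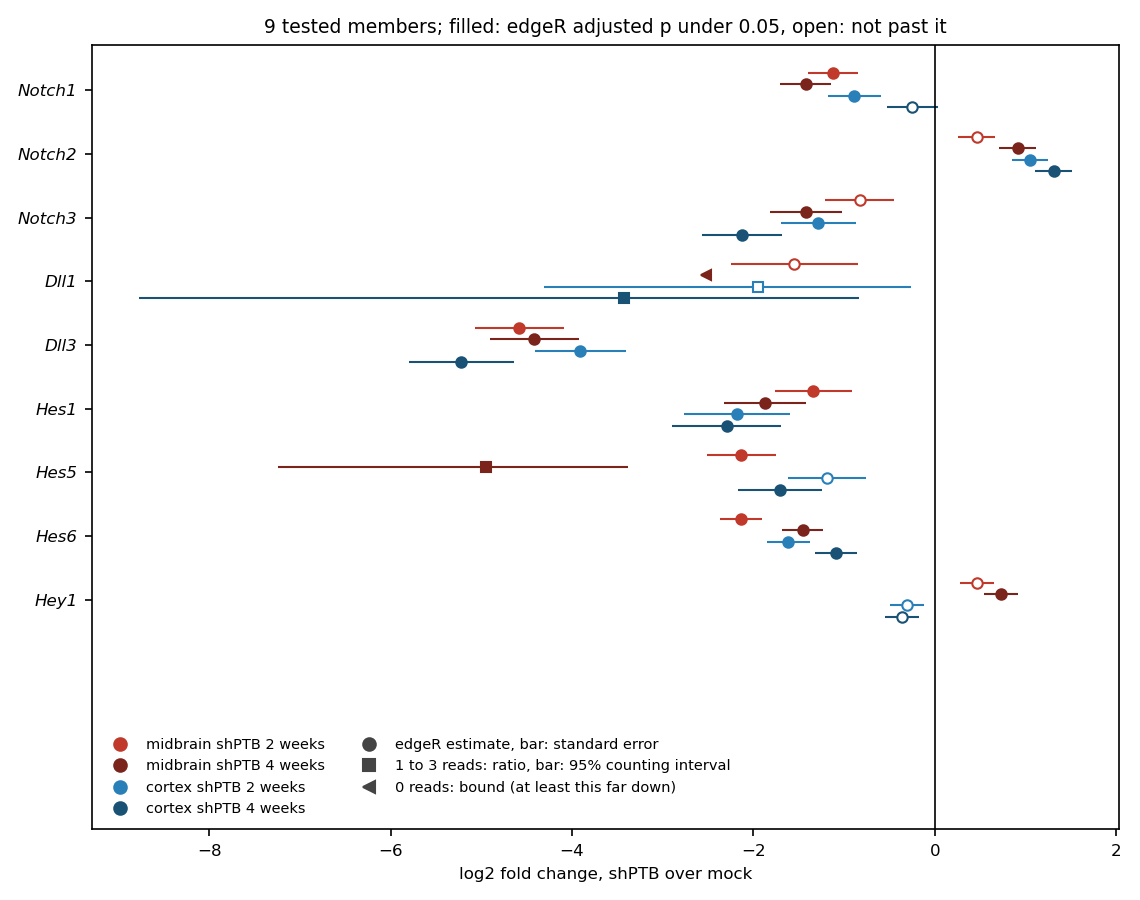
Log2 fold change of shPTB over mock for the 9 tested members (horizontal axis) in midbrain and cortex at 2 and 4 weeks. Circles are edgeR estimates with standard errors, squares are ratios of groups with 1 to 3 reads with 95% counting intervals, the triangle is the bound of a group with 0 reads, and filled symbols passed an adjusted p of 0.05. Notch2 lies right of 0 in all 4 comparisons, and Dll3 lies furthest left among the circles.

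The groups of shPTB cultures were next compared with each other. Between 4 and 2 weeks, 1 of 9 members passed in midbrain, where 2.66% of all genes did (1.7% lower and 0.965% higher). In cortex 0 passed in edgeR, where 2.77% of all genes did (2.22% lower and 0.548% higher), and 0 members passed at an unadjusted p under 0.05 or with DESeq2. The 1 was Hes5, with 1 and 2 reads at 4 weeks against 13 and 13 reads at 2 weeks in midbrain, a level 7.12-fold lower (counting interval 2.18 to 36.8, adjusted p = 0.0405). The call was lost under 7 alternatives, including DESeq2 (adjusted p = 0.114) and each 1 of its 4 libraries left out (adjusted p = 0.202 without 2-week replicate 1, 0.206 without 2-week replicate 2, 0.310 without 4-week replicate 1 and 0.216 without 4-week replicate 2).

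Midbrain and cortex were compared in each state. In mock 0 members passed the threshold in edgeR (3 at an unadjusted p under 0.05), where 2.19% of all genes did (0.938% lower and 1.25% higher). At 2 weeks 0 passed (3 unadjusted), where 2.94% of all genes did (0.931% lower and 2.01% higher). At 4 weeks 0 passed (6 unadjusted), where 7.99% of all genes did (2.51% lower and 5.48% higher). DESeq2 called 0 members in each state. In mock the largest differences of midbrain over cortex among tested members were in targets: Hes5 had 1.20 ± 0.34 (adjusted p = 0.132), Hes1 1.15 (adjusted p = 0.285) and Hey1 −0.56 ± 0.18 (adjusted p = 0.222). Jag1, which was not tested, had 36 reads in midbrain mock against 11 in cortex mock, or 1.03 ± 0.459 against 0.341 ± 0.257 CPM (SD, n = 2). At 4 weeks Hes5 had 3 reads in midbrain against 9 in cortex (a 4.14-fold lower ratio, interval 1.03 to 23.8, adjusted p = 0.145) and Hey1 had 0.53 ± 0.19 (adjusted p = 0.131). The difference of the responses, midbrain minus cortex, passed for 0 members at 2 weeks in edgeR (1 unadjusted), where 0.685% of all genes passed (0.26% lower and 0.424% higher). At 4 weeks it passed for 0 (3 unadjusted), where 2.55% of all genes passed (0.644% lower and 1.9% higher), and DESeq2 again called 0. The nearest were Hey1 (1.09 ± 0.26, adjusted p = 0.0584) and Hes5 (−3.19 ± 0.79, adjusted p = 0.0638) at 4 weeks. With single libraries left out, the Hey1 difference at 4 weeks ran from 0.93 to 1.25 and the Hes5 difference from −3.71 to −2.65.

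Of 59 other genes of the pathway, listed by role with earlier results of these data known, 55 were tested. In midbrain 4 were higher and 8 lower at 2 weeks (21.8% called, against 30.6% of all genes) and 5 higher and 15 lower at 4 weeks (36.4% against 39.2%), and in cortex 8 higher and 13 lower at 2 weeks (38.2% against 35%) and 9 higher and 13 lower at 4 weeks (40% against 39.4%). These shares were close to or below those of all genes. Their median log2 change was −0.10 and −0.20 in midbrain and −0.03 and −0.09 in cortex. The non-canonical ligands Dlk1, Dlk2 and Dner were lower in 2 of 3 in midbrain at 2 weeks, 3 of 3 at 4 weeks, 3 of 3 in cortex at 2 weeks and 2 of 3 at 4 weeks.

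Dlk1, a membrane protein related to Delta ligands, had 2.94 and 3.97 CPM at 2 weeks, 1.52 and 0.669 CPM at 4 weeks and 10.6 and 13.3 CPM in mock in midbrain. In cortex Dlk1 had 0.935 and 1.46 CPM at 2 weeks, 1.28 and 0.768 CPM at 4 weeks and 15.3 and 23.0 CPM in mock. The changes at 2 and 4 weeks were −1.78 ± 0.33 and −3.44 ± 0.40 in midbrain (adjusted p = 0.00238 and 8.02e-05) and −3.97 ± 0.41 and −4.20 ± 0.42 in cortex (adjusted p = 3.88e-05 and 2.65e-05), and the 4 calls held under every alternative. Dner, a neuronal ligand, had 1.02 and 1.43 CPM at 2 weeks and 4.23 and 5.51 CPM in mock in midbrain (−1.98 ± 0.33, adjusted p = 0.00118; −0.97 with a length offset, adjusted p = 0.141). The canonical ligand Jag2 had 0 and 0 reads at 4 weeks against 26 and 11 in mock in midbrain, at least 5.33-fold lower (adjusted p = 0.0148), a call lost without midbrain mock replicate 1 (adjusted p = 0.0622), 4-week replicate 1 (adjusted p = 0.07797) or 4-week replicate 2 (adjusted p = 0.0789). In cortex Jag2 had 0 and 0 reads at 2 weeks against 17 and 4 in mock, at least 2.70-fold lower (adjusted p = 0.0457), a call lost with DESeq2 (adjusted p = 0.1001) and without cortex mock replicate 1 (adjusted p = 0.182), 2-week replicate 1 (adjusted p = 0.150) or 2-week replicate 2 (adjusted p = 0.172).

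Mfng, a glycosyltransferase that tunes the response of receptors to ligands, was close to the floor after shPTB. Mfng had 2 and 1 reads at 2 weeks, 0 and 2 reads at 4 weeks and 88 and 103 reads in mock in midbrain. It was 33.5-fold lower at 2 weeks (counting interval 11.3 to 164, adjusted p = 0.000545) and 41.3-fold lower at 4 weeks (11.3 to 343, adjusted p = 0.000482). For cortex the values were 1 and 0 reads at each time against 57 and 79 in mock, and Mfng was 52.5-fold lower at 2 weeks (9.27 to 2090, adjusted p = 0.000956) and 48.7-fold lower at 4 weeks (8.59 to 1937, adjusted p = 0.000878). Neurl1b, an E3 ligase for ligands, had 0 and 2 reads at 2 weeks, 0 and 0 at 4 weeks and 36 and 35 in mock in midbrain, and 0 and 1, 0 and 0, and 22 and 31 in the same states in cortex. It was 18.7-fold lower at 2 weeks (4.99 to 157, adjusted p = 0.0101) and at least 10.2-fold lower at 4 weeks (adjusted p = 0.00400) in midbrain, and 20.5-fold (3.52 to 824, adjusted p = 0.0161) and at least 6.33-fold lower (adjusted p = 0.00755) in cortex. The 2-week calls of Neurl1b were lost without midbrain 2-week replicate 1 (adjusted p = 0.0743) and without cortex 2-week replicate 1 (adjusted p = 0.101) or 2 (adjusted p = 0.0570), and 3.83% of its 3′ words stood in other genes.

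**Figure D4:**
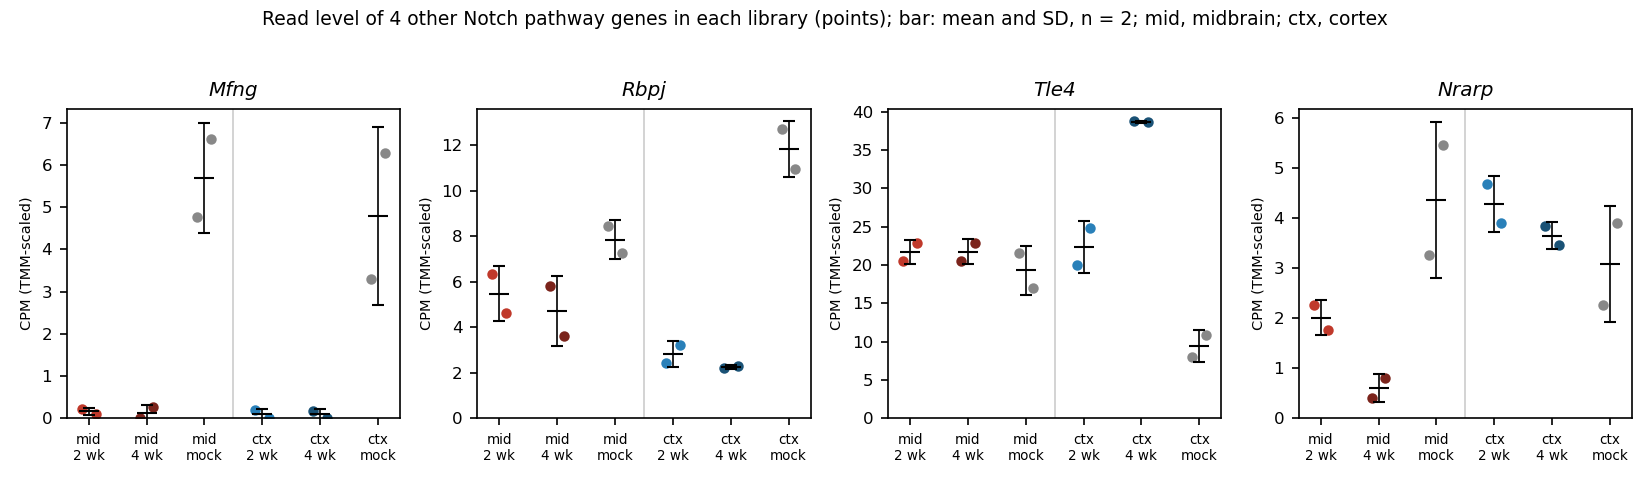
TMM-scaled CPM of Mfng, Rbpj, Tle4 and Nrarp (vertical axes, from 0) in the 12 libraries, ordered as midbrain (mid) and cortex (ctx) at 2 weeks, 4 weeks and mock, with points for libraries and black bars for the mean and SD of 2. Nrarp falls to 0.414 and 0.803 CPM in midbrain at 4 weeks, against 3.84 and 3.45 CPM in cortex at 4 weeks.

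Rbpj, the DNA-binding partner of the cut receptor, had 6.33 and 4.63 CPM at 2 weeks, 5.79 and 3.61 CPM at 4 weeks and 8.45 and 7.24 CPM in mock in midbrain. Cortical CPM were 2.43 and 3.24 CPM at 2 weeks, 2.19 and 2.303 CPM at 4 weeks and 12.7 and 10.96 CPM in mock. In cortex Rbpj fell: −2.05 (adjusted p = 0.000483) at 2 weeks and −2.39 (adjusted p = 0.000186) at 4 weeks, against −0.52 (adjusted p = 0.172) and −0.74 (adjusted p = 0.0577) in midbrain. The difference of the responses did not pass the threshold at 2 weeks (1.53 ± 0.41, adjusted p = 0.175) or 4 weeks (1.65 ± 0.43, adjusted p = 0.0787). With a length offset the cortical 2-week call was lost (−4.04, adjusted p = 0.0597), and the midbrain 2-week change was 0.92.

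Nrarp, a direct Notch target that damps the pathway, was lower in midbrain at 4 weeks. It had 2.26 and 1.76 CPM at 2 weeks, 0.414 and 0.803 CPM at 4 weeks and 3.25 and 5.45 CPM in mock in midbrain, with changes of −1.10 (adjusted p = 0.0538) at 2 weeks and −2.80 (adjusted p = 0.00107) at 4 weeks, and the 4-week call held under every alternative. Cortex held 4.67 and 3.89 CPM at 2 weeks, 3.84 and 3.45 CPM at 4 weeks and 2.26 and 3.89 CPM in mock, with changes of 0.48 (adjusted p = 0.359) and 0.26 (adjusted p = 0.639). At 4 weeks Nrarp was lower in midbrain than in cortex (−2.56 ± 0.52, adjusted p = 0.0112), and the responses differed (−3.06 ± 0.64, adjusted p = 0.0284). Both calls were lost without any 1 of 3 libraries: the level difference without cortex 4-week replicate 1 (adjusted p = 0.0768), cortex 4-week replicate 2 (adjusted p = 0.0561) or midbrain 4-week replicate 1 (adjusted p = 0.117), and the response difference without the same libraries (adjusted p = 0.132, 0.0976 and 0.163), midbrain 4-week replicate 2 (adjusted p = 0.0799) or midbrain mock replicate 2 (adjusted p = 0.0559). The response difference was also lost with a length offset (adjusted p = 0.0588) and in a fit of the compared groups alone (adjusted p = 0.108).

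Tle4, a Groucho-type corepressor that HES proteins recruit, had 20.6 and 22.8 CPM at 2 weeks, 20.6 and 22.9 CPM at 4 weeks and 21.5 and 17.1 CPM in mock in midbrain. Cortex had 20.003 and 24.8 CPM at 2 weeks, 38.8 and 38.6 CPM at 4 weeks and 7.95 and 10.9 CPM in mock. Mock cortex held the lowest libraries, and midbrain over cortex in mock was 1.04 ± 0.21 (adjusted p = 0.0302), a call lost without cortex mock replicate 1 or midbrain mock replicate 1 (adjusted p = 0.123 each), with a length offset (adjusted p = 0.0825) and in a fit of the compared groups alone (adjusted p = 0.775). Tle4 was higher in cortex at 2 weeks (1.26, adjusted p = 0.00127) and 4 weeks (2.04, adjusted p = 3.94e-05), and its change in midbrain was 0.17 at each time (adjusted p = 0.566 and 0.541). The responses differed at 4 weeks (−1.87 ± 0.30, adjusted p = 0.00727), a call lost without midbrain 4-week replicate 1 (−1.79, adjusted p = 0.0576). Scaled to total reads the midbrain changes were −0.51 (adjusted p = 0.0723) and −0.71 (adjusted p = 0.0180), so that their sign depended on the scaling and the 4-week one passed as a fall, and the cortical ones 0.54 (adjusted p = 0.0633, call lost) and 0.98 (adjusted p = 0.00335). With a length offset the cortical 2-week call was lost as well (0.57, adjusted p = 0.0858), and the midbrain 4-week change was −0.80 (adjusted p = 0.0217). Of the other genes named by the rule for 4 weeks, the corepressor Tle2 was higher in midbrain than in cortex (5.24 and 4.41 against 0.732 and 0.384 CPM, 3.08 ± 0.59, adjusted p = 0.00853) and Dner lower (0.966 and 1.47 against 4.39 and 6.14 CPM, −2.09 ± 0.36, adjusted p = 0.00431). The Tle2 call was lost without cortex 4-week replicate 1 (adjusted p = 0.0623) or 2 (adjusted p = 0.107) or midbrain 4-week replicate 1 (adjusted p = 0.0519), and the Dner call without cortex 4-week replicate 2 (adjusted p = 0.0527) or midbrain 4-week replicate 1 (adjusted p = 0.0604).

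**Figure D5:**
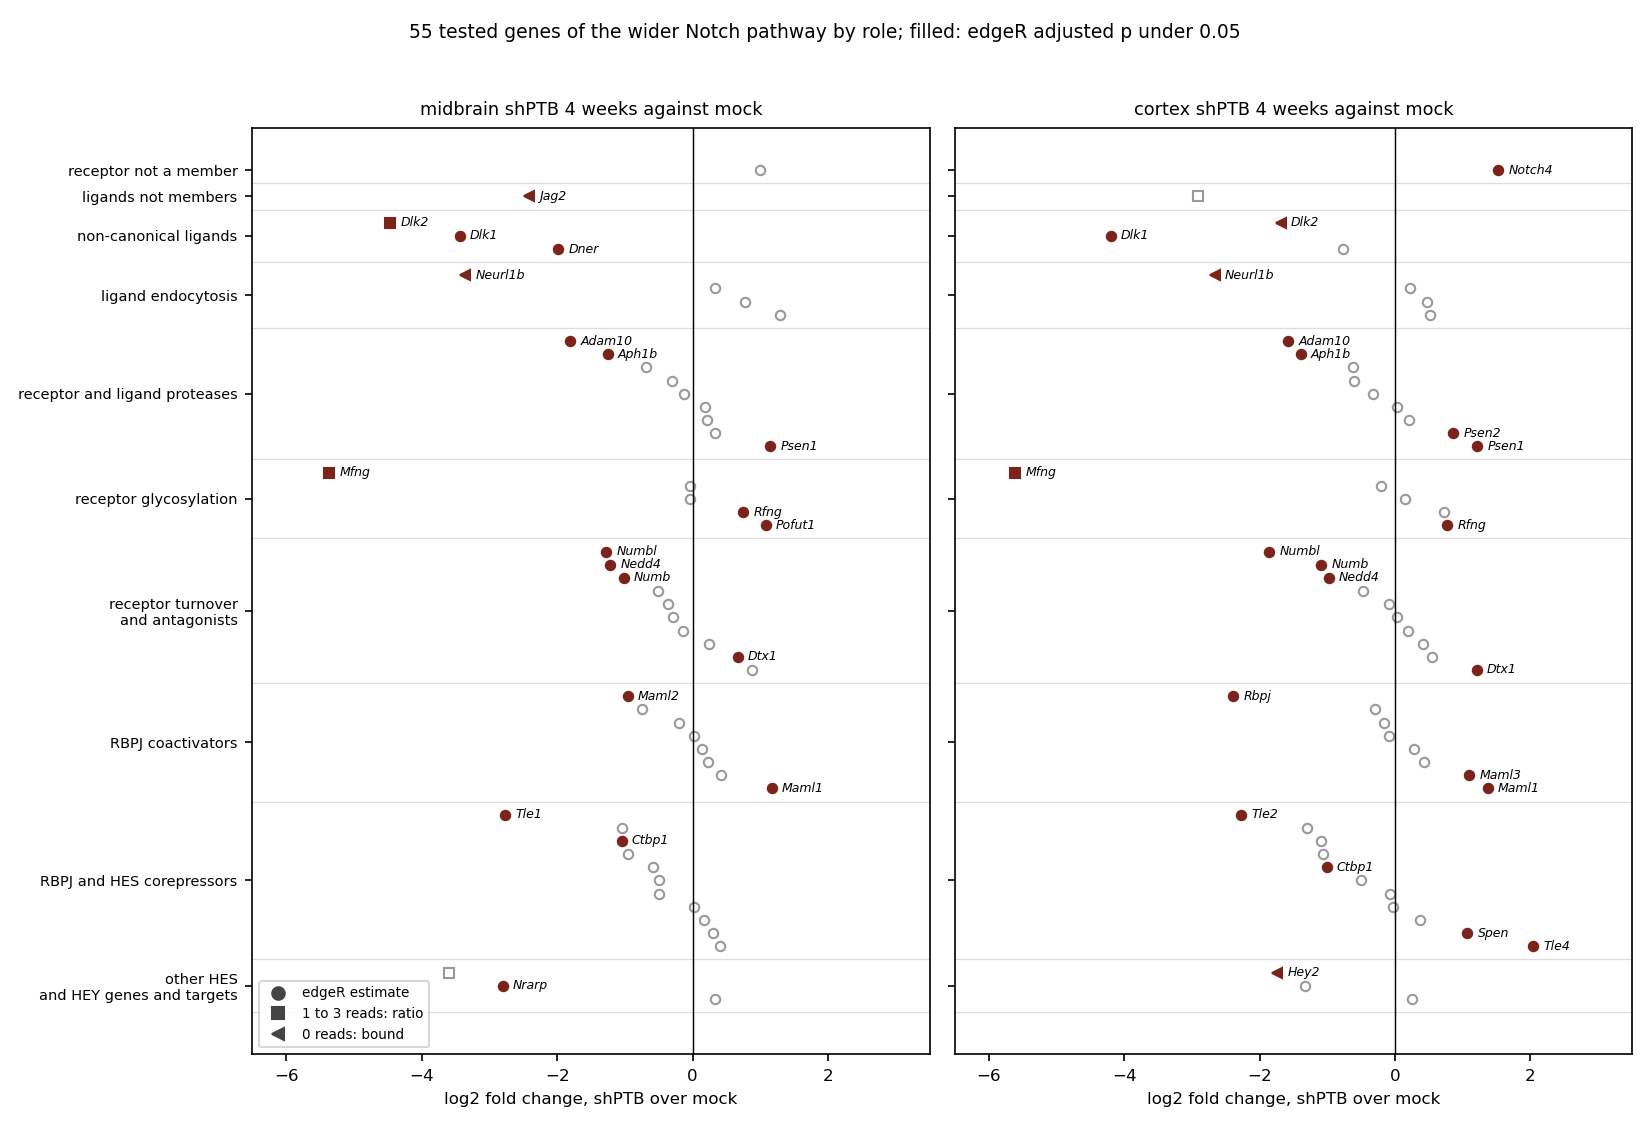
Log2 fold change of shPTB over mock at 4 weeks (horizontal axis) for 55 other genes of the pathway, grouped by role, in midbrain (left) and cortex (right). Filled symbols passed an adjusted p of 0.05 and are named; squares are ratios of groups with 1 to 3 reads and triangles are bounds of groups with 0 reads. In midbrain 5 genes are higher and 15 lower, and in cortex 9 are higher and 13 lower.

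Levels of different genes were compared per length, in the deposited TPM. In mock, Dll3 stood highest of the members at 127 ± 44.2 TPM in midbrain and 82.0 ± 33.2 TPM in cortex, a value set by the short Dll3-202. Hes6 (10.3 ± 4.23 and 7.85 ± 4.55 TPM), Hes1 (7.69 ± 3.13 and 4.68 ± 0.220 TPM), Hes5 (6.14 ± 1.75 and 2.49 ± 0.255 TPM) and Hey1 (3.83 ± 0.0698 and 5.45 ± 0.558 TPM) came next in midbrain and cortex. The 3 receptors averaged 0.727 to 2.37 TPM, Dll1 2.10 and 1.52 TPM and Jag1 0.984 and 0.257 TPM in mock (SD, n = 2). The protocol reads towards 3′ ends, and division by length then lowers long transcripts relative to short ones, so that this order holds for the deposited TPM only. In CPM, with no length term, Notch3 (29.2) and Notch1 (20.1) in midbrain mock were above Hes6 (15.5), Hes5 (6.43) and Hes1 (6.26).

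Across the 12 libraries, which share groups and treatments, the members' log2 CPM were described by Pearson's r, with no test. Notch3 and Hes1 were closest to each other (0.91), and Notch2 ran against Hes1 (−0.92) and Notch3 (−0.87). By the same measure among 7499 protein-coding genes, the genes closest to each tested member were Hnrnpa1 (0.95) and Camk2g (0.91) for Notch1, Aurkaip1 (0.97) and Bambi (0.97) for Notch2, Spef1 (0.98) and Hsp90b1 (0.97) for Notch3, and Sncaip (0.97) and Tm9sf2 (0.95) for Dll1. They were Hlx (0.99) and Myl9 (0.99) for Dll3, Vwa3a (0.96) and Plekha2 (0.96) for Hes1, Rgs17 (0.95) and Nras (0.94) for Hes5, Cnot6 (0.97) and Fkbp3 (0.97) for Hes6, and Slc41a2 (0.87) and Mdh1 (0.85) for Hey1. Of the 9, Hey1 had the lowest values.

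Some members share exonic bases with other annotated genes. Notch1 overlaps 2 genes on the opposite strand, with 66 and 0 reads over the 12 libraries against 1656 for Notch1. Notch3 shares 488 bases with the antisense Gm17276 (313 reads against 2129), Dll1 shares 867 bases with A930024N18Rik (10 reads against 81), Hes5 shares 433 bases with Gm20421 (0 reads against 349) and Notch2 shares 541 bases on its own strand with Gm42820 (98 reads against 1710). The sources used here do not give the strand setting of the counting, and reads in these stretches could have been divided between partners.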

How the data were processed

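RNA-seq libraries were made from cultured mouse astrocytes with a protocol that reads towards 3′ ends. The tools named in the submitters' processing notes are Salmon 0.14.1, cutadapt 2.3 and DESeq2, with the build mm10, and no source used here names an annotation release. The deposited values are Salmon's estimated counts per transcript (140658 transcripts) and TPM, which the authors' Salmon runs scaled within each library. Estimated counts were summed per gene with GENCODE M21 (GRCm38): 140137 transcripts matched and 521 did not (0.0547 to 0.129% of reads), giving 54356 genes. Of nonzero gene values 28.3% were not whole (tolerance 0.001), and all were rounded.

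In R 4.3.3, edgeR 4.0.16 with limma 3.58.1 kept 14607 genes (at least 10 reads by filterByExpr, total 15), scaled by TMM, and fitted all 6 groups together (6 residual degrees of freedom, common dispersion 0.05501), giving 11 contrasts by the quasi-likelihood test with Benjamini-Hochberg adjustment. DESeq2 1.42.0 was an alternative. Genes with 1 to 3 reads in a group are given as ratios with exact 95% counting intervals, and groups with 0 reads as bounds at 3 reads over the group. Reads carry no molecular identifiers, so intervals cover counting error only. TPM were described, not tested.

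The members, the 59 other pathway genes and the marker lists were chosen with earlier results of these data known. The text names all members, Rbpj, and in each comparison the 3 called pathway genes of largest change whose higher group averaged 1 CPM or more. Promoters are from RefSeq. Alternatives were other size factors, total-read scaling, mitochondrial genes left out, no count filter or 5 CPM in 2 libraries, a length offset, a replicate block, DESeq2, the compared groups alone and each library left out. Leaving out mock replicate 1 or 2 of both regions was added after seeing the data.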

Additional observations from a re-analysis of the deposited data

Results flagged for a closer look

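The response to shPTB at 4 weeks differed between the regions for 2 of 55 tested pathway genes (3.64%, where 2.55% of all genes passed), by edgeR's test of the difference itself. This share was close to that of all genes, and the pathway list was chosen with earlier results of these data known. Tle4, a corepressor, had a response lower by 1.87 on the log2 scale in midbrain than in cortex (−1.87, adjusted p = 0.00727), and Nrarp, a Notch target, had −3.06 (adjusted p = 0.0284). Without midbrain 4-week replicate 1 neither passed (adjusted p = 0.0576 for Tle4 and 0.163 for Nrarp). That was the only alternative run that ended the Tle4 call, while 8 ended the Nrarp call, among them a length offset (adjusted p = 0.0588) and the compared groups alone (adjusted p = 0.108).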

How the results depend on the processing

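Printed fold changes of members and named pathway genes against mock, and in other comparisons those with an unadjusted p under 0.05, were recomputed under the alternatives: 1328 values kept direction and side of the threshold, 95 lost their call, 70 gained one and 16 changed sign. Scaled to total reads, the values that changed sign were Nrarp −0.20 (2 weeks) and −0.78 (4 weeks) in cortex, and in midbrain Notch2 −0.22, Hey1 −0.20 and Tle4 −0.51 at 2 weeks and Hey1 −0.13 and Tle4 −0.71 at 4 weeks. With a length offset they were Nrarp −0.73 (cortex 4 weeks), Rbpj 0.92 (midbrain 2 weeks), Dner 0.63 (cortex 4 weeks) and Tle4 −0.22 and −0.80 (midbrain 2 and 4 weeks). Without mock replicate 1 of both regions, Notch1 had 0.0221 and Nrarp −0.10 in cortex at 4 weeks; leaving out single libraries gave −0.478 to 0.0195 for Notch1 and −0.10 to 0.68 for Nrarp.

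The count of members past the threshold in midbrain at 2 weeks was 3 with a length offset, 8 without mock replicate 1 of both regions and 3 to 6 with single libraries left out. In cortex at 2 weeks single libraries left out gave 3 to 5 (3 without 2-week replicate 2). For 4 against 2 weeks in midbrain it was 0 with a length offset, 0 with a replicate block, 0 with DESeq2, 3 with the compared groups alone and 0 in each fit without 1 library, and in cortex 1 with the compared groups alone. Between regions it was 2 with no count filter and 3 with the compared groups alone at 2 weeks, and 2 with total reads, 1 with no count filter and 4 with the compared groups alone at 4 weeks. For the difference of responses it was 1 at 2 weeks without mock replicate 1 of both regions, and at 4 weeks 1 with total reads, 1 with no count filter, 1 with 5 CPM in 2 libraries, 3 without mock replicate 1 and 3 without mock replicate 2 of both regions, and 0 to 1 with single libraries left out (1 without cortex mock replicate 1). The cause was not tested.

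Replicate numbers are shared by the groups without a stated link. Deviations of same-numbered mock libraries of the regions correlated across genes at 0.716, other pairs of groups at −0.0274 to 0.0306, and the replicate block gave 4 and 9 called members in midbrain and 5 and 6 in cortex at 2 and 4 weeks. With the block, calls were lost for Notch3 (adjusted p = 0.0505) and Jag2 (0.0767) in cortex at 2 weeks, Dll1 in cortex at 4 weeks (0.0515), Hes1 in midbrain at 2 weeks (0.0525), Hes5 at 4 against 2 weeks in midbrain (0.0763), Tle4 between mock regions (0.0749) and the Nrarp response difference at 4 weeks (0.0508). Depth limits Dll1, Dll3, Jag1, Hes1 and Hes5, which had 0 to 24 reads in each shPTB library.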
